A study of Mus musculus with 12 samples.

Results

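The comparison asked how the liver transcriptome of mice lacking lipocalin 2 (Lcn2, also known as neutrophil gelatinase-associated lipocalin) differed from that of wild type mice after repeated injection of mineral oil, the carrier used for CCl4 in this model. Its members were all genes of the table of Lcn2 null against wild type mice on oil, 14202 of the 16292 genes with a value in any of the deposited tables. They were taken as listed there, and any filter behind that list is not given in the sources used here. Both groups were female C57BL/6 mice, 8 weeks old at the start, which received mineral oil intraperitoneally 2 times per week for 8 weeks, and were killed 48 h after the last injection. The controls had thus been given oil as well, and mice without injection were not analysed here. The groups differed in genotype, Lcn2-/- against wild type, with 3 libraries each of the 12 in the series. The other 6 libraries came from mice of the same genotypes given 0.8 ml/kg CCl4 in mineral oil. The labels give replicates as numbers only, so the p-values measure the spread between libraries, which may in part be technical. Livers were perfused before sampling. The exons deleted in the null allele and any backcrossing are not given in the sources used here.

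LCN2 is a secreted carrier protein that binds bacterial siderophores, the small molecules with which bacteria collect iron. Neutrophils store it in their specific granules, and hepatocytes secrete it during the acute-phase response, in which interleukin-6 and interleukin-1 acting through STAT3, NF-kappaB and C/EBP factors turn on serum amyloid A, haptoglobin, orosomucoid and other plasma proteins. Mineral oil in the peritoneal cavity is a lasting irritant that draws in neutrophils, monocytes and macrophages.

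By the labels RNA was read from the 3′ ends of transcripts, and a value is the CPM of a gene, its reads scaled to the total of the library. The 6 libraries held 8066536 to 13939671 reads in genes, and 3 reads corresponded to 0.215 to 0.372 CPM. Libraries of the same genotype correlated at 0.975 to 0.983 over log2(CPM + 1), and libraries of different genotypes at 0.96 to 0.968. Hepatocyte markers (Alb, Ttr, Apoa1 and Ahsg) summed to 58870.0 to 78240.1 CPM in wild type and 83740.1 to 99226 CPM in null livers. Of the defining markers of other cell types, those of neutrophils summed to 156 to 211 CPM in wild type and 22.9 to 39.7 CPM in null livers. Those of monocytes summed to 293 to 707 CPM in wild type and 111 to 178 CPM in null livers and those of Kupffer cells to 556 to 1021 CPM in wild type and 293 to 395 CPM in null livers. Those of mesothelium summed to 34.1 to 51.2 CPM in wild type and 7.74 to 8.9 CPM in null livers. In none of these 4 sums did the groups overlap. By the rule given below, 2 of the 4 tested neutrophil markers were called lower. Of the neutrophil sum, S100a8 alone made up a mean of 93.9 CPM in wild type and 15.5 CPM in null livers. A wider list of 17 genes of mature neutrophils summed to 2257 to 3008 CPM in wild type and 1701 to 1854 CPM in null livers. Of these 17 genes, 5 were called lower and 12 were not called. Sums of endothelial markers (144 to 156 CPM in wild type and 119 to 202 CPM in null livers) and of stellate cell markers (74.7 to 88.7 CPM in wild type and 65.6 to 108 CPM in null livers) overlapped. Whole liver was sequenced, so fewer cells of a type and less RNA per cell cannot be told apart.

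Lcn2 itself, on the reverse strand of chromosome 2 from 32384633 to 32388252 (GRCm38), was at 345, 739 and 1045 CPM in wild type and 7.74, 3.44 and 4.21 CPM in null livers (log2FC -6.78, standard error 0.33, limma adjusted p = 3.1e-07). The groups were far apart, with wild type library 1 the lowest of its group. By the labels reads came from 3′ ends, and the deleted part of the gene is not given, so the few reads left in the null libraries check nothing further.

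Fewer transcripts were higher than lower in the Lcn2 null livers. The log2 fold change of null over wild type (log2FC) was taken on log2(CPM + 1), where changes of weakly expressed genes come out too small. A gene was called when its log2FC exceeded 0.56 in size (1.47-fold) and its limma p, adjusted after Benjamini and Hochberg, did not exceed 0.05. By this rule 158 genes (1.11%) were higher and 539 genes (3.80%) were lower, 697 in all (4.91%), while the median log2FC of all genes was -0.03 and 54.6% of genes were below 0. The edgeR test on recovered reads called 1.34% higher and 3.39% lower, and DESeq2 1.86% and 4.80%. At an unadjusted p under 0.05, limma gave 7.22% higher and 12.1% lower genes. Of all 14202 genes, 9.84% were higher and 14.3% were lower without any overlap of the groups. The counts fell to 108 and 291 without wild type library 2, to 96 and 319 without Lcn2 null library 1 and to 84 and 253 without Lcn2 null library 2. Among genes averaging at least 5 CPM, the 15 that rose most were Gm28438, Mup19, Mup7, Mup2, Mup18, Meg3, Dbp, Egr1, Cyp3a44, Gm13775, Nr1d1, Slco1a1, Mup17, Mup12 and Cyp4a14, with log2FC from 1.79 to 6.29. The 15 that fell most were Lcn2, Saa2, Saa1, Saa3, Gm47283, Prtn3, Cxcl13, Gvin1, Cib3, Orm2, Marco, Cyp2a22, Isyna1, Chil1 and Slpi, from -2.64 to -6.78. Major urinary proteins and a clock repressor thus stood on one side, serum amyloid A, granule and macrophage genes on the other, and cytochromes P450 on both (Cyp3a44 and Cyp4a14 higher, Cyp2a22 lower). The call was lost for Mup2 without wild type library 2 or null library 1 or 2 (limma adjusted p = 0.0503 to 0.073), Dbp without wild type library 2 or 3 or null library 3 (limma adjusted p = 0.0576 to 0.076) and Slco1a1 without null library 1 or 2 (limma adjusted p = 0.057 to 0.071). The call did not hold for Cyp4a14 without wild type library 2 or null library 1 (limma adjusted p = 0.0636 to 0.0744). Mup2, Mup18 and Slco1a1 missed the thresholds without a variance trend. Dbp would not be called without a variance trend or with a pseudocount of 5. Cyp4a14 lost the call without a variance trend or with DESeq2.

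**Figure D1:**
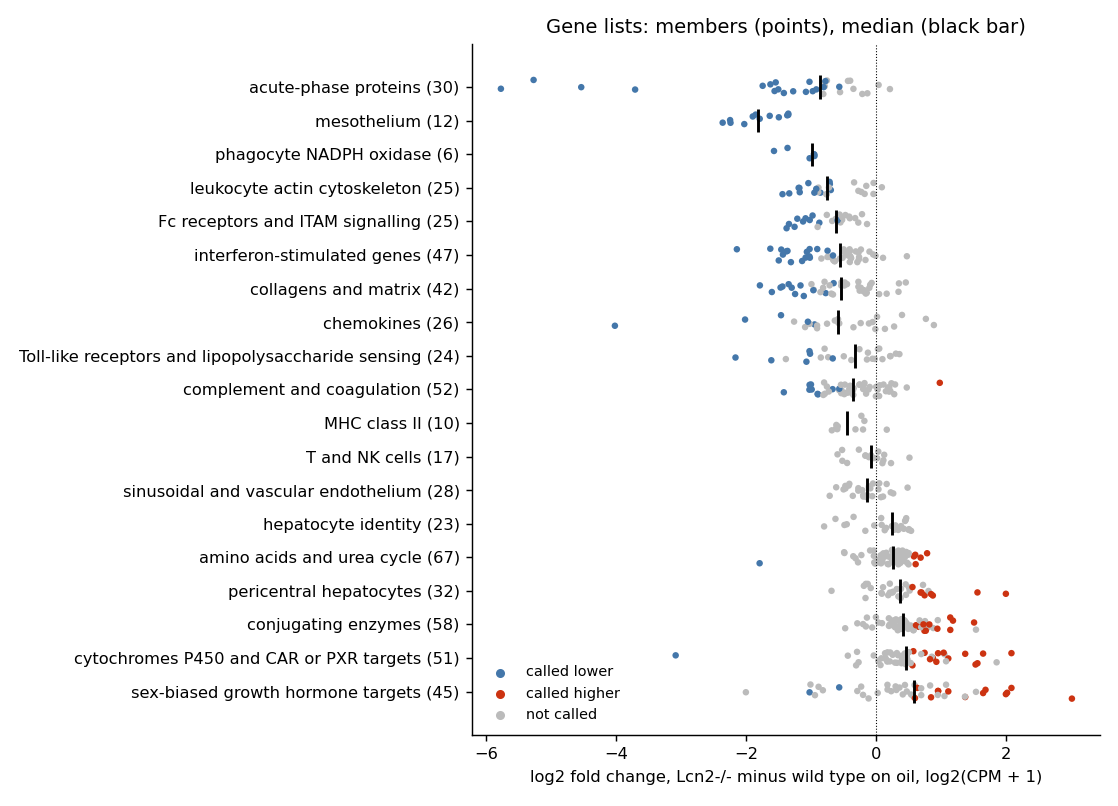
log2 fold change (Lcn2 null minus wild type on oil, x axis) of each member of 19 gene lists, with the number of members tested in parentheses; colours mark called genes and black bars the list medians. All 12 mesothelial genes and all 6 NADPH oxidase genes (3 without a variance trend) were called lower, whereas every called member of the conjugating enzymes was higher.

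The acute-phase plasma proteins of the hepatocyte were lower in part, led by serum amyloid A. Of 30 tested members of this list, 18 were lower, none were higher by limma, edgeR or DESeq2 (0 at an unadjusted limma p under 0.05) and 12 were not called, with a median log2FC of -0.86. The count was 14 to 21 with any single library left out and 10 without a variance trend. Saa1, a lipoprotein-bound opsonin of the acute phase, was at 1049.9, 8462 and 18135 CPM in wild type and 152, 150.3 and 121 CPM in null livers (log2FC -5.27, standard error 0.71, limma adjusted p = 0.0013). Its neighbour Saa2 was at 552, 7182 and 17294 CPM in wild type and 105, 64.6 and 60.1 CPM in null livers (log2FC -5.77, limma adjusted p = 0.0026). Wild type library 1 was far below the other wild type libraries for both genes, yet above every null library. The reads of these near-identical genes can be exchanged between them. The summed level of the hepatocyte markers Alb, Ttr, Apoa1 and Ahsg, given above, was higher in every null library than in any wild type library. This sum is a share of each library and does not measure the number of hepatocytes, whose part was not tested. Saa3, the form made by macrophages and other extrahepatic cells in mice, varied little within a group, at 247, 334 and 235 CPM in wild type and 11, 9.83 and 11.2 CPM in null livers (log2FC -4.53, limma adjusted p = 2.7e-09). Saa4, the constitutive member of the cluster, fell by less (log2FC -1.07, limma adjusted p = 0.0053). Saa4 missed the thresholds without a variance trend.

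The orosomucoids, acidic glycoproteins that bind drugs and lipids, fell too. Orm2 was at 1002, 2657 and 3821 CPM in wild type and 127, 173 and 206 CPM in null livers (log2FC -3.70, standard error 0.36, limma adjusted p = 0.00014), with no overlap and with wild type library 1 again lowest. Orm1 was at 4436 ± 2118 CPM in wild type and 1416 ± 192 CPM in null livers, and Orm3 at 122 ± 59.3 CPM in wild type and 35.7 ± 3.58 CPM in null livers (-1.54 and -1.62 on the log2 scale). Haptoglobin, which captures free haemoglobin, was at 4708, 6262 and 8182 CPM in wild type and 2282, 2523 and 2978 CPM in null livers (log2FC -1.27, limma adjusted p = 0.0032). Hemopexin, which captures free haem, was at 11156, 14588 and 19396 CPM in wild type and 4285, 5349 and 6085 CPM in null livers (log2FC -1.50, limma adjusted p = 0.0028). Apcs, the serum amyloid P component and the main pentraxin of the mouse acute phase, was at 692, 1031 and 2009 CPM in wild type and 321, 402 and 434 CPM in null livers (log2FC -1.56, limma adjusted p = 0.0068). In Hp, Hpx and Apcs all 3 wild type values exceeded all null values, and wild type library 3 was the highest. Lbp, which hands bacterial lipopolysaccharide to CD14, varied little among libraries, at 240.1, 236 and 222 CPM in wild type and 114, 115 and 113 CPM in null livers (log2FC -1.02, limma adjusted p = 6.9e-05). Crp, which responds weakly in mice, was not called, nor were the fibrinogen chains Fga and Fgb (-0.34, -0.81 and -0.80 on the log2 scale). Orm1, Orm3 and Apcs would not be called without a variance trend.

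**Figure D2:**
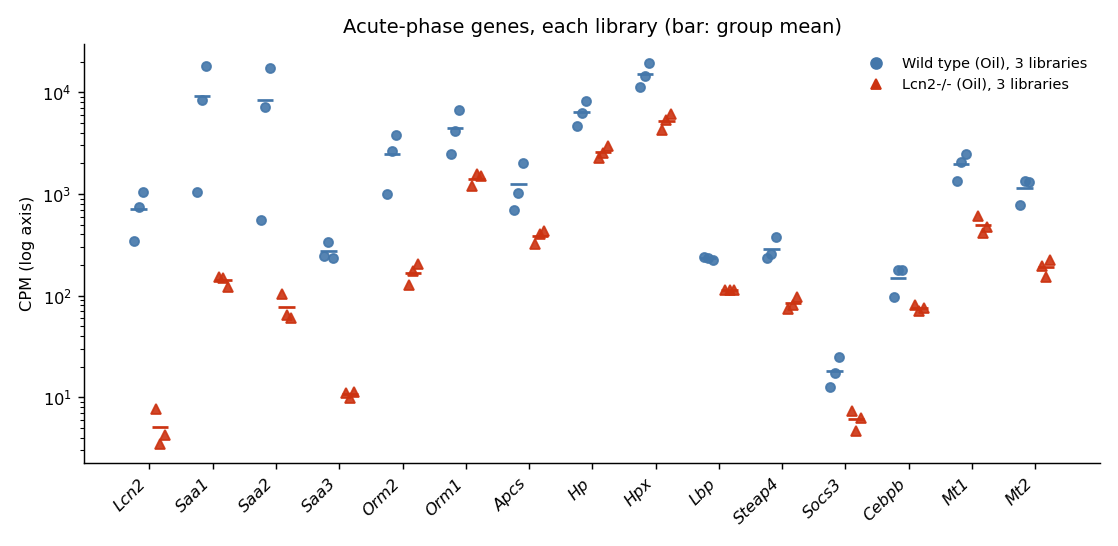
CPM on a log axis of Lcn2 and 14 acute-phase and stress genes in each library (circles, wild type on oil; triangles, Lcn2 null on oil; bars, group means). Groups did not overlap for any gene drawn, and wild type library 1 gave the lowest Saa1 value of its group, 1050 CPM.

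Interleukin-6 signalling induces these proteins, and some of its genes were lower. Socs3, the feedback inhibitor of interleukin-6 signalling that STAT3 itself induces, was at 12.7, 17.3 and 24.9 CPM in wild type and 7.41, 4.66 and 6.2 CPM in null livers (log2FC -1.41, standard error 0.24, limma adjusted p = 0.0048). Stat3, which carries that signal, was just past the fold threshold (log2FC -0.56, limma adjusted p = 0.026), and the receptor chain Osmr was also lower (log2FC -1.10, limma adjusted p = 0.017). Il6 was not among the genes of the table, and Il6ra was at 31.2 ± 5.95 CPM in wild type and 27.2 ± 7.7 CPM in null livers (not called, adjusted p = 0.64, limma). Of 35 genes of interleukin receptors and their signalling, 7 were lower and none were higher by limma, edgeR or DESeq2 (1 at an unadjusted limma p under 0.05), with a median of -0.26. The number lower was 4 without null library 2. The C/EBP factors that act on acute-phase promoters fell. Cebpd was at 17.2, 21 and 15.6 CPM in wild type and 6.1, 3.87 and 8.43 CPM in null livers (log2FC -1.45, limma adjusted p = 0.0038). Cebpb was at 150.2 ± 46.9 CPM in wild type and 75.5 ± 4.69 CPM in null livers (log2FC -0.93, limma adjusted p = 0.014). Steap4, a metalloreductase induced with the acute phase, was at 236, 254 and 373 CPM in wild type and 73.9, 81.5 and 96.9 CPM in null livers (log2FC -1.74, limma adjusted p = 9.1e-05). The test was no longer passed by Stat3 without wild type library 3 or null library 1 or 3 (limma adjusted p = 0.0706 to 0.108), Osmr without wild type library 1 or 2 or null library 1 or 2 (limma adjusted p = 0.0502 to 0.0805) and Cebpb without wild type library 2 or null library 2 (limma adjusted p = 0.0743 to 0.0746). Stat3 lost the call without a variance trend, with edgeR, with DESeq2, with TMM factors, with size factors or with a pseudocount of 5. Cebpb missed the thresholds without a variance trend.

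Metallothioneins, small proteins that hold zinc and copper and are induced by interleukin-6 and glucocorticoids, fell together. Mt2 was at 779, 1333 and 1308 CPM in wild type and 198, 152 and 223 CPM in null livers (log2FC -2.55, standard error 0.19, limma adjusted p = 1.7e-05). Mt1 was at 1337, 2054 and 2468 CPM in wild type and 601, 415 and 469 CPM in null livers (log2FC -1.95, limma adjusted p = 0.00022). No null library reached the lowest wild type library in either gene. Slc39a8, a zinc importer, was lower (log2FC -0.81, limma adjusted p = 0.0074). Of 45 NRF2 targets, antioxidant genes and metallothioneins together, 5 were lower and 1 was higher, with a median of 0.05. The number lower was 2 without null library 2 and 3 without wild type library 3 or null library 3, and the number higher was 0 to 3 with any single library left out. No call was made for Slc39a8 without null library 2 (limma adjusted p = 0.0505). Slc39a8 would not be called without a variance trend.

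Because LCN2 handles iron, the 30 genes of iron and haem handling were examined as a list. Of these, 6 were lower, 1 was higher, and the median was -0.25; the lower count was 3 without null library 2. Hamp, which encodes hepcidin, the hormone that closes iron export, was at 1361, 1528 and 1611 CPM in wild type and 1068, 1776 and 873 CPM in null livers and was not called (log2FC -0.34, limma adjusted p = 0.41). Its duplicate Hamp2, whose role in iron balance is less certain, was instead higher at 479, 459 and 565 CPM in null and 219, 235 and 127 CPM in wild type livers (log2FC 1.41, limma adjusted p = 0.0012). Cp, the ferroxidase ceruloplasmin and an acute-phase protein, was at 1156, 1123 and 1314 CPM in wild type and 735, 637 and 726 CPM in null livers (log2FC -0.78, limma adjusted p = 0.0022). Hmox1, which opens the haem ring, was at 11.6, 16.1 and 13.1 CPM in wild type and 7.74, 6.31 and 5.7 CPM in null livers (log2FC -0.94, limma adjusted p = 0.013). Trf, transferrin, was at 16927, 17589 and 19145 CPM in wild type and 11723, 14066 and 13651 CPM in null livers without passing the test (log2FC -0.45, limma adjusted p = 0.25). The LCN2 receptor gene Slc22a17 was low in both groups, at 1.18, 1.2 and 0.601 CPM in wild type and 0.654, 0.933 and 2.36 CPM in null livers, and Lrp2, another receptor, was at 0.772 ± 0.494 CPM in wild type and 0.0717 ± 0.124 CPM in null livers. Of the 6 lower iron genes, Hpx, Cp and Steap4 also belong to the acute-phase list. The thresholds were missed by Hmox1 without wild type library 2 or null library 2 (limma adjusted p = 0.0587 to 0.076).

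Complement and coagulation genes, not all of which encode proteins secreted by hepatocytes, were lower in part. Of 52 tested, 9 were lower and 1 (F3, tissue factor) was higher, with a median of -0.35. The number lower was 6 to 11 with any single library left out and 4 without a variance trend. Cd55, a membrane-bound inhibitor of complement activation, was at 43.5, 35.7 and 22 CPM in wild type and 10.7, 10.4 and 13.9 CPM in null livers (log2FC -1.42, limma adjusted p = 0.0029). Serping1, the C1 inhibitor, was at 849.6 ± 103 CPM in wild type and 535 ± 56.2 CPM in null livers (log2FC -0.66, limma adjusted p = 0.0069). Cfp, properdin, which is made by myeloid cells, was at 101 ± 23 CPM in wild type and 49 ± 9.26 CPM in null livers (log2FC -1.02, limma adjusted p = 0.0047). The terminal components C6, C8a and C9 were also lower (C6 -1.02 and C9 -0.90 on the log2 scale), while C3, on which all pathways converge, was not called (log2FC -0.43, limma adjusted p = 0.27). The call was lost for F3 without wild type library 2 or 3 or null library 1, 2 or 3 (limma adjusted p = 0.0734 to 0.132) and C9 without wild type library 2 or 3 (limma adjusted p = 0.051 to 0.061). F3 lost the call with a pseudocount of 5 or with a replicate block. Serping1, Cfp and C8a missed the thresholds without a variance trend. C9 would not be called without a variance trend or with DESeq2.

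Promoters of called genes are shown so that short words bound by factors of the acute phase (C/EBP and STAT), of myeloid cells (PU.1) and of the clock can be seen in them. The 250 bases before the RefSeq start (GRCm38.p6) are given 5′ to 3′ for Saa1 (chr7:46742981-46743230), Saa2 (chr7:46751583-46751832), Saa3 (chr7:46715677-46715926), Lcn2 (chr2:32387740-32387989), Orm2 (chr4:63362199-63362448), Socs3 (chr11:117969367-117969616), the calgranulin gene S100a8 (chr3:90668821-90669070) and the clock output gene Tef (chr15:81802423-81802672). Saa1, Saa3, Lcn2 and Socs3 are on the reverse strand. By the gene models used for positions, the stretches of Lcn2, Socs3 and Tef lie wholly within the gene. Those of S100a8, Saa2 and Saa3 reach into the gene in part, and the S100a8 word nearer the RefSeq start lies inside it. In these 6 genes the gene model thus begins further upstream than the RefSeq start used here. Tef has another RefSeq start, and the first is shown. Capitals mark TTGCNNAA, a form bound by C/EBP factors, on either strand in the first 5, TTCNNNGAA, the STAT form, in Socs3, GAGGAA, the core bound by the myeloid factor PU.1, read on the opposite strand in S100a8, and CACGTG, the E-box of the clock activators, in Tef.

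Saa1: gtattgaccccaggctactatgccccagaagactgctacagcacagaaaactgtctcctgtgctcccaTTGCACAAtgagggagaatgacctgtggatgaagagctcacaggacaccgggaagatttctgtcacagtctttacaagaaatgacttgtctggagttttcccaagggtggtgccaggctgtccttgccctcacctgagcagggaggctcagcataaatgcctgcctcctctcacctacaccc
Saa2: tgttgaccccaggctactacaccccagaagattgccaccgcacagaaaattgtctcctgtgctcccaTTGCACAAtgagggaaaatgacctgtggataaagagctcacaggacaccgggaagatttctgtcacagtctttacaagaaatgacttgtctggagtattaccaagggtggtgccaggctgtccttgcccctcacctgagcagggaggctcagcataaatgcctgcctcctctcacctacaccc
Saa3: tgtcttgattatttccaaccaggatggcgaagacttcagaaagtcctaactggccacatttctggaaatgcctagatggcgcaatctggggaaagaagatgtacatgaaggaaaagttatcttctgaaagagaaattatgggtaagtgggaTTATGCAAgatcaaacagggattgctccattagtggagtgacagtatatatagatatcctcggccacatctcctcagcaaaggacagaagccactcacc
Lcn2: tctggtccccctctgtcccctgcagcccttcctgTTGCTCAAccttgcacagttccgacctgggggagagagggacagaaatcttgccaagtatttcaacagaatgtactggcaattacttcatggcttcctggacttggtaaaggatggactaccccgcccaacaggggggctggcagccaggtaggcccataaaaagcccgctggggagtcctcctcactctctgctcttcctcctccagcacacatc
Orm2: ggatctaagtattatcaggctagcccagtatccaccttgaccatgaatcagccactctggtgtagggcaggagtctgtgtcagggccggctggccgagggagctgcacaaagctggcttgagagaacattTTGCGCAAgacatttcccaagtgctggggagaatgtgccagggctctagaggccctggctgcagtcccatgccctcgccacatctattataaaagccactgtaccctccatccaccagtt
Socs3: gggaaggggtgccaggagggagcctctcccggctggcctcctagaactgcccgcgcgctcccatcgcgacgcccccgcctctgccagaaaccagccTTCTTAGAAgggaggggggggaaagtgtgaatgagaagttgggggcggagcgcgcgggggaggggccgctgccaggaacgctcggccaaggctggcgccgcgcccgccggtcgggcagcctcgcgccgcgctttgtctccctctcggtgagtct
S100a8: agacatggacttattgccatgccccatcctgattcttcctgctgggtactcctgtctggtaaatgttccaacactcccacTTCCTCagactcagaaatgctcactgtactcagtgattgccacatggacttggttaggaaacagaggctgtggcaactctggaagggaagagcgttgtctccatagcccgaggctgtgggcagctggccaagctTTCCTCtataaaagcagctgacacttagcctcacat
Tef: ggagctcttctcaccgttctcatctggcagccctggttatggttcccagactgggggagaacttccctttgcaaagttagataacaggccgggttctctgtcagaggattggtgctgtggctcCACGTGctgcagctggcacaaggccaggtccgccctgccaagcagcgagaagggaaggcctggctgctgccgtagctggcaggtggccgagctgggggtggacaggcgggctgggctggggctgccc

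The Saa1 and Saa2 stretches were 94.8% identical over 251 aligned positions with the same TTGCACAA word, and Saa3 shared 48.5% with Saa1. The motif began 182 bases before the start in Saa1, 183 in Saa2, 99 in Saa3, 216 in Lcn2 and 120 in Orm2. Over the 300 bases from 250 before to 50 after each start, searched on both strands in 13529 promoters of 10579 tested genes, TTGCNNAA occurred in 9.1% of all promoters, in 15.9% of the 502 promoters of lower genes and in 15% of the 147 promoters of higher genes. This motif was added after the promoters had been read. GAGGAA occurred in 26.6% of all, 34.1% of lower and 23.1% of higher promoters. TTCNNNGAA occurred in 6.93% of all, 9.16% of lower and 5.44% of higher promoters. CACGTG occurred in 9.64% of all, 4.98% of lower and 12.9% of higher promoters. These shares describe letters in a window and not sites in use. Promoters of 397 lower and 115 higher genes were matched.

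Genes of phagocyte granules and of the phagocyte oxidase were examined next. The neutrophil primary granule protease Prtn3 was at 25.7, 70.7 and 90.4 CPM in wild type and 0.872, 2.22 and 5.83 CPM in null livers (log2FC -4.02, standard error 0.46, limma adjusted p = 0.00046), with wild type library 1 the lowest of its group. Mpo was near the detection limit, at 0.364, 2.16 and 1.44 CPM in wild type and 0, 0.359 and 0 CPM in null livers, and did not pass the test (adjusted p = 0.099, limma), while Elane was not among the genes of the table. Of 7 genes of secondary and tertiary granules, the compartment that stores LCN2, 5 were lower and none were higher by limma, edgeR or DESeq2 (0 at an unadjusted limma p under 0.05), with a median of -1.40. Ngp, a granule cathelicidin relative, was at 2.91, 4.68 and 8.78 CPM in wild type and 0.436, 0.646 and 0 CPM in null livers (log2FC -2.17, limma adjusted p = 0.0032). These are low counts, and the number of called granule genes was 1 without null library 1, 2 without wild type library 2, 3 without wild type library 1 or 3 or null library 2 or 3 and 1 without a variance trend.

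All 6 tested genes of the phagocyte NADPH oxidase, which makes the superoxide of the respiratory burst, were lower (median -0.99; 4 to 6 with any single library left out and 3 without a variance trend). The membrane subunit Cybb was at 74.1, 59 and 41.4 CPM in wild type and 26.1, 27.4 and 34 CPM in null livers (log2FC -0.94, limma adjusted p = 0.01). The cytosolic organiser Ncf1 was at 9.1, 8.52 and 7.93 CPM in wild type and 2.62, 2.44 and 3.1 CPM in null livers (log2FC -1.36, limma adjusted p = 0.0028). Ncf4, its phosphoinositide-binding partner, was at 7.73, 10.4 and 6.85 CPM in wild type and 1.31, 2.01 and 3.35 CPM in null livers (log2FC -1.57, limma adjusted p = 0.0053). None of the 3 showed an overlap of the groups, nor did any of the 6, against 14.3% of all genes lower without overlap. The call did not hold for Cybb without wild type library 2 or null library 2 (limma adjusted p = 0.0518 to 0.0583). Cybb lost the call without a variance trend.

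Receptors by which phagocytes sense particles were lower in part. Of 25 Fc receptors and genes of ITAM signalling, by which phagocytes read antibody-coated particles, 10 were lower, none were higher by limma, edgeR or DESeq2 (0 at an unadjusted limma p under 0.05) and all 25 had a negative log2FC (median -0.62). Fcer1g, the common Fc receptor gamma chain, was at 57, 50.9 and 49.5 CPM in wild type and 26.7, 21.7 and 28.3 CPM in null livers (log2FC -1.02, limma adjusted p = 0.00091). Tyrobp, the adaptor of TREM2 and other receptors, was at 77.1, 79.5 and 51.1 CPM in wild type and 24.6, 33.7 and 35 CPM in null livers (log2FC -1.12, limma adjusted p = 0.0035). Pirb, an inhibitory receptor, was at 18.9 ± 4.73 CPM in wild type and 6.52 ± 0.298 CPM in null livers (log2FC -1.37, limma adjusted p = 0.0022). The count of the list was 5 without wild type library 1 or 2 or null library 2, 6 without null library 1 and 5 without a variance trend.

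Among 24 Toll-like receptors and genes of lipopolysaccharide sensing, 6 were lower (median -0.31; 3 without wild type library 1 or 2 or null library 1 or 2). Tlr2, the receptor for bacterial lipoproteins, was at 14.9, 8.88 and 11.3 CPM in wild type and 1.96, 4.16 and 3.47 CPM in null livers (log2FC -1.61, limma adjusted p = 0.0038), and the co-receptor Cd14 also fell (log2FC -2.16, limma adjusted p = 0.00036). Tlr4 was at 4.09, 3 and 2.64 CPM in wild type and 1.42, 1.36 and 1.24 CPM in null livers and was not called (log2FC -0.85, limma adjusted p = 0.062). Casp4 (caspase-11 in mice), the cytosolic sensor of lipopolysaccharide, was at 7.73, 5.64 and 8.29 CPM in wild type and 2.72, 1.94 and 2.11 CPM in null livers (log2FC -1.33, limma adjusted p = 0.0056). Il1b was at 14.2, 5.4 and 5.05 CPM in wild type and 2.51, 3.87 and 6.07 CPM in null livers and was not called (log2FC -0.76, limma adjusted p = 0.27). Of 19 genes of the inflammasome and the interleukin-1 family, 6 were lower, among them the receptor Il18r1 (log2FC -1.65, limma adjusted p = 0.0074), and the count was 2 without wild type library 2 or null library 1 or 2, 3 without wild type library 3 or null library 3 and 3 with a pseudocount of 5. Tnf was not among the genes of the table.

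Chemokines were lower in part. Of 26 tested, 5 were lower and none were higher by limma (2 at an unadjusted p under 0.05), against 0 by edgeR and 2 by DESeq2, with a median of -0.58. The number lower was 8 without wild type library 3 and 9 with DESeq2. Cxcl13, which guides B cells to lymphoid follicles and the peritoneum, fell with a wide range among wild type libraries, at 313, 136 and 25.5 CPM in wild type and 3.92, 5.6 and 7.31 CPM in null livers (log2FC -4.01, standard error 0.62, limma adjusted p = 0.003). Cxcl1, a neutrophil attractant, was at 42.8, 67.9 and 134 CPM in wild type and 10.7, 26.7 and 18.2 CPM in null livers (log2FC -2.01, limma adjusted p = 0.0058). The order of the wild type libraries was opposite in these genes, with library 1 highest for Cxcl13 and lowest for Cxcl1. Ccl6, a chemokine of myeloid cells, was at 44.9, 39.5 and 29.5 CPM in wild type and 7.96, 14.3 and 18.8 CPM in null livers (log2FC -1.46, limma adjusted p = 0.005). Ccl2, the monocyte attractant, was at 36.8, 14.4 and 6.49 CPM in wild type and 7.63, 3.8 and 6.69 CPM in null livers and overlapped between the groups (log2FC -1.26, limma adjusted p = 0.13). Cxcl1 and Ccl6 missed the thresholds without a variance trend.

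Molecules by which leukocytes adhere and move were lower in part. Of 23 integrins, selectins and their ligands, 6 were lower (median -0.52; 3 without wild type library 1 or null library 2 and 3 without a variance trend). Itgb2, the beta chain shared by the leukocyte integrins, was at 27.3, 18.4 and 18.9 CPM in wild type and 6.98, 5.6 and 7.56 CPM in null livers (log2FC -1.53, limma adjusted p = 0.0009). Itgam, its CD11b partner, was at 6.28, 5.4 and 4.57 CPM in wild type and 1.31, 1.79 and 1.74 CPM in null livers (log2FC -1.29, limma adjusted p = 0.0068). Vcam1, the endothelial and Kupffer cell ligand of another integrin, was at 31.5, 22.1 and 22.4 CPM in wild type and 11.8, 8.68 and 10.8 CPM in null livers (log2FC -1.20, limma adjusted p = 0.0025). Of 25 genes of the leukocyte actin cytoskeleton, 12 were lower (median -0.75; 6 without null library 2, 7 without wild type library 2 and 6 without a variance trend). Tmsb4x, thymosin beta 4, which holds actin monomers in reserve, was at 991, 882 and 591 CPM in wild type and 311, 335 and 433 CPM in null livers (log2FC -1.17, limma adjusted p = 0.0028). Myo1f, a myosin of neutrophils, was at 7.19, 6.96 and 7.33 CPM in wild type and 1.85, 2.22 and 1.98 CPM in null livers (log2FC -1.44, limma adjusted p = 0.0025). Neutrophil, monocyte and Kupffer cell markers moved with all of these lists, as given above, and their part in the counts was not tested.

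Myeloid transcription factors were lower in part. Of 19 factors, 5 were lower with a median of -0.41 (3 without wild type library 2 or null library 2), and Spi1, which encodes PU.1, was not called at 10.1, 11.4 and 7.45 CPM in wild type and 7.3, 7.1 and 7.19 CPM in null livers (adjusted p = 0.35, limma). Irf8, which directs monocyte development, was at 15.5, 12.4 and 11.1 CPM in wild type and 6.21, 4.66 and 6.32 CPM in null livers (log2FC -1.05, limma adjusted p = 0.0086). Of 8 colony-stimulating factors and their receptors, Csf1r and the similar pair Csf2rb and Csf2rb2, which can share reads, were lower, and the number was 0 without wild type library 2 or null library 2, 1 without wild type library 1 or null library 1 and 0 without a variance trend. Csf1r, the receptor on which tissue macrophages depend, was at 129, 132 and 82.1 CPM in wild type and 58.4, 54.2 and 71 CPM in null livers (log2FC -0.87, limma adjusted p = 0.01). Spic, the factor of macrophages that recycle haem iron, was low in all libraries, at 4.46, 4.32 and 4.45 CPM in wild type and 1.09, 0.717 and 1.24 CPM in null livers (log2FC -1.43, limma adjusted p = 0.004). The test was no longer passed by Csf1r without wild type library 2 or null library 2 (limma adjusted p = 0.0599 to 0.0641), Csf2rb without wild type library 1 or 2 or null library 1 or 2 (limma adjusted p = 0.061 to 0.0889) and Csf2rb2 without wild type library 1, 2 or 3 or null library 1, 2 or 3 (limma adjusted p = 0.0509 to 0.146). Csf1r and Csf2rb would not be called without a variance trend. Csf2rb2 lost the call without a variance trend, in a fit of all 12 libraries, with a pseudocount of 5 or with a replicate block.

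No gene of antigen presentation was called. Of 10 genes of MHC class II presentation and 20 of class I, 5 and 6 were lower at an unadjusted limma p under 0.05, against 12.1% of all genes. A negative log2FC was found in 9 and 17 of them, against 54.6% of all genes. Groups did not overlap in 2 and 9 of them, all lower, against 14.3% of all genes. For either list edgeR and DESeq2 called 0 genes. H2-Aa was at 62, 61.3 and 42.7 CPM in wild type and 28.6, 30.1 and 51.6 CPM in null livers (log2FC -0.61, limma adjusted p = 0.12) and H2-Ab1 at 47.8, 62.1 and 38.2 CPM in wild type and 38.8, 33.2 and 54.9 CPM in null livers, with overlapping groups in both. T and NK cell genes had a median of -0.07 over 17 genes, of which limma, edgeR and DESeq2 called 0 and 0 had an unadjusted p under 0.05.

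Among 20 B and plasma cell genes, 4 were lower (median -0.63; 1 without wild type library 2 or null library 1 or 2 and 1 without a variance trend). Ighm, the mu heavy chain of IgM, was at 15.6, 12.6 and 10.1 CPM in wild type and 5.23, 5.09 and 3.1 CPM in null livers (log2FC -1.34, limma adjusted p = 0.0052), with no overlap. Igha, the heavy chain of IgA, was at 10.7, 21.4 and 24.2 CPM in wild type and 5.01, 4.81 and 9.17 CPM in null livers (log2FC -1.41, limma adjusted p = 0.015). The summed level of the whole list was 365 to 598 CPM in wild type and 448 to 503 CPM in null livers, with overlapping groups. Defining markers of B cells summed to 15.9 to 22 CPM in wild type and 6.32 to 9.59 CPM in null livers. The called members were Bank1, Ighm, Igkc and Igha. No call was made for Igha without wild type library 2 or 3 or null library 1 or 2 (limma adjusted p = 0.0532 to 0.0785), Bank1 without wild type library 1 or 2 or null library 1 or 2 (limma adjusted p = 0.0828 to 0.131) and Igkc without wild type library 2 or null library 1, 2 or 3 (limma adjusted p = 0.076 to 0.129). Igha and Bank1 missed the thresholds without a variance trend. Igkc would not be called without a variance trend, with DESeq2 or with a pseudocount of 5.

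Interferon-stimulated genes were lower in part. Of 47 tested, 17 were lower, none were higher by limma, edgeR or DESeq2 (0 at an unadjusted limma p under 0.05) and 45 had a negative log2FC, with a median of -0.55. The count was 10 without wild type library 1 or null library 1 or 2 and 10 without a variance trend. Oas1a, an activator of RNase L, was at 25.5, 21.8 and 18.6 CPM in wild type and 4.8, 5.67 and 2.6 CPM in null livers (log2FC -2.14, standard error 0.23, limma adjusted p = 0.00034). Irf7, the factor that amplifies type I interferon, was at 90.8, 69.3 and 65.5 CPM in wild type and 19.3, 28 and 36.3 CPM in null livers (log2FC -1.43, limma adjusted p = 0.0014). Ifi27l2a, induced by interferon in many cells, was at 93, 74.9 and 63 CPM in wild type and 21.3, 19.9 and 32.6 CPM in null livers (log2FC -1.62, limma adjusted p = 0.00044). Zbp1, a sensor of Z-form nucleic acid, was at 17.5, 15.6 and 17.2 CPM in wild type and 7.08, 7.53 and 8.8 CPM in null livers (log2FC -1.01, limma adjusted p = 0.0037). Groups were separate in each of these genes, which were named because they were called. Of the 47 genes, 26 were lower without overlap, against 14.3% of all genes, and 0 were higher without overlap. Ly6e, an abundant interferon-responsive surface protein, was at 564, 634 and 588 CPM in wild type and 213, 265 and 272 CPM in null livers (log2FC -1.25, limma adjusted p = 8.2e-05). Kupffer cell and monocyte markers moved in the same direction, and their part was not tested.

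Several of these genes lie in arrays of related neighbours, which were gathered as families by symbol after their values had been seen. On chromosome 1 of GRCm38, 11 Ifi200 genes, which encode DNA sensors and their relatives, span 681 kb, and 8 of them were lower, all 11 with a negative log2FC. Ifi204 was at 22.7, 16.8 and 13.9 CPM in wild type and 5.78, 3.23 and 7.56 CPM in null livers (log2FC -1.56, limma adjusted p = 0.0046). Ifi211 was at 21.8, 15.1 and 10.7 CPM in wild type and 4.47, 3.44 and 2.36 CPM in null livers (log2FC -1.91, limma adjusted p = 0.0016). Ifi208 was at 3, 1.8 and 1.56 CPM in wild type and 0, 0 and 0 CPM in null livers, without a read in the null libraries, where 3 reads correspond to at most 0.372 CPM. Aim2, the inflammasome sensor, was not called (log2FC -0.63, limma adjusted p = 0.29). The number of called Ifi200 genes was 4 without wild type library 1 or null library 2, 5 without wild type library 2 or null library 1 or 3 and 5 without a variance trend. Ifi208 lost the call with a pseudocount of 5.

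On chromosome 7, Trim34a, Trim5, Trim12a, Trim30b, Trim30a and Trim30d, which encode relatives of an antiviral restriction factor, were lower within one array, whereas Trim6, at one end of the array, and Trim12c, inside it, were not called (0.56 and 0.08 on the log2 scale). Trim12a was at 16, 10.2 and 12.6 CPM in wild type and 0.436, 0.43 and 6.2 CPM in null livers (log2FC -2.48, limma adjusted p = 0.011). Trim34a was at 10.4, 8.04 and 7.81 CPM in wild type and 0.327, 0.215 and 4.09 CPM in null livers (log2FC -2.26, limma adjusted p = 0.01). Lcn2 null library 3 stood well above the other null libraries in both genes and still below every wild type library. Trim12c was at 25.2, 13.2 and 19.7 CPM in wild type and 19.4, 20.7 and 19.5 CPM in null livers. Gvin1, a very large interferon-inducible GTPase encoded elsewhere on chromosome 7, was at 41.9, 12.4 and 25 CPM in wild type and 4.25, 0 and 0 CPM in null livers (log2FC -3.82, limma adjusted p = 0.0025), and here Lcn2 null library 1 was the one with reads. On CCl4 neither gene was called, with Trim12a at 15.2, 10.6 and 11.5 CPM in wild type and 6.99, 7.65 and 7.13 CPM in null livers and Gvin1 at 24.3, 16 and 17.7 CPM in wild type and 10.3, 15.9 and 13.9 CPM in null livers. Members of these arrays are similar in sequence, so reads may have been assigned between them. Calls of Trim genes numbered 3 without null library 2, 4 without null library 1 and 4 without a variance trend or with DESeq2. DESeq2 on recovered reads did not call Gvin1 (adjusted p = 0.31), Trim5 (0.21), Trim12a (0.2) or Trim34a (0.2). Other arrays of interferon-inducible genes were mixed. Of 10 Gbp genes, which encode guanylate-binding proteins, Gbp2 was lower (log2FC -1.38, limma adjusted p = 0.005), Gbp2b was higher (log2FC 1.12, limma adjusted p = 0.04) and 8 were not called. Of 5 Apol genes, Apol11b, Apol10b and Apol9a were lower (-1.47, -1.17 and -0.81 on the log2 scale), and the number was 1 without wild type library 2 or 3 or null library 1 and 1 with a pseudocount of 5, without a variance trend, with edgeR or in a fit of all 12 libraries. The thresholds were missed by Trim34a without null library 2 (limma adjusted p = 0.0587), Trim12a without null library 1 or 2 (limma adjusted p = 0.0527 to 0.0652) and Trim30b without wild type library 1, 2 or 3 or null library 1, 2 or 3 (limma adjusted p = 0.0603 to 0.131). The call was lost for Gbp2b without wild type library 2 or 3 or null library 1 or 3 (limma adjusted p = 0.0675 to 0.16). Trim34a, Trim12a and Gbp2b missed the thresholds without a variance trend. Trim30b would not be called with edgeR, with a pseudocount of 5 or with a replicate block.

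The Ms4a array on chromosome 19, which encodes membrane proteins of myeloid cells and lymphocytes, had 6 of 8 genes lower (2 without null library 2 and 3 without wild type library 1 or 2). Ms4a7, found on macrophages, was at 7.37, 4.56 and 3.73 CPM in wild type and 1.2, 0.789 and 1.61 CPM in null livers (log2FC -1.47, limma adjusted p = 0.0085). Ms4a6c, found on monocytes, was at 10.2, 8.16 and 5.53 CPM in wild type and 1.42, 1.58 and 2.23 CPM in null livers (log2FC -1.68, limma adjusted p = 0.0028). Ms4a4b, a gene of T cells, was at 1.82, 1.68 and 0.721 CPM in wild type and 0.981, 2.22 and 1.49 CPM in null livers and was not called (log2FC 0.10, limma adjusted p = 0.9). The call did not hold for Ms4a7 without null library 2 (limma adjusted p = 0.0513).

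**Figure D3:**
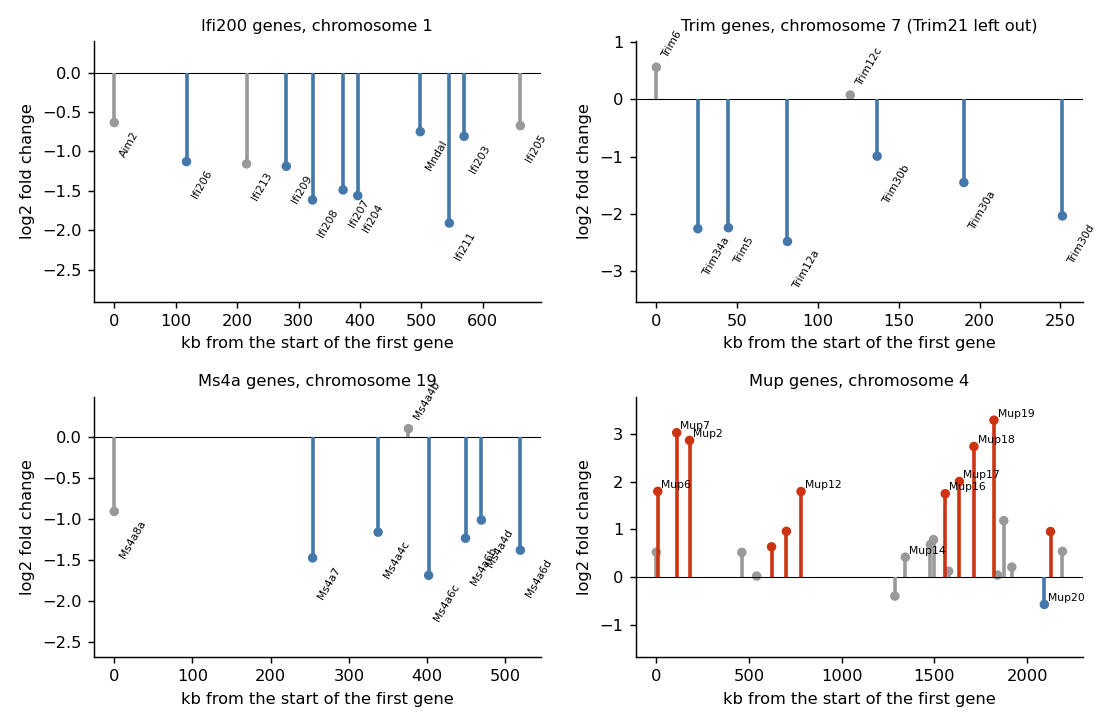
log2 fold change (Lcn2 null minus wild type on oil, y axis) of neighbouring genes against the distance in kb from the start of the first gene of the array (x axis), for Ifi200, Trim, Ms4a and Mup genes; blue, called lower; red, called higher; grey, not called. Trim12c was not called between lower neighbours, nor was Trim6 at the edge of the lower run, and the Mup array held 11 higher genes beside Mup20, which was lower.

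Mesothelial genes were lower throughout. All 12 tested genes of this cell type, which covers the liver surface and lines the peritoneum, were lower, with a median of -1.82, and 12 with any single library left out. Summed over the list, the level was 64.3 to 95.4 CPM in wild type and 13.6 to 14.1 CPM in null livers. Upk3b was at 12.7, 11.8 and 9.98 CPM in wild type and 1.42, 2.22 and 1.36 CPM in null livers (log2FC -2.24, limma adjusted p = 0.00019). Upk1b, another uroplakin, was at 9.19, 11.3 and 7.45 CPM in wild type and 1.2, 1.15 and 1.12 CPM in null livers (log2FC -2.24, limma adjusted p = 0.00022). Msln, mesothelin, was at 15.1, 11.5 and 7.21 CPM in wild type and 3.38, 1.58 and 1.86 CPM in null livers (log2FC -1.89, limma adjusted p = 0.0028). Wt1, the transcription factor of mesothelium, was at 4.37, 5.16 and 4.09 CPM in wild type and 0.981, 1 and 1.49 CPM in null livers (log2FC -1.36, limma adjusted p = 0.0053). In each of these genes every wild type library exceeded every null library, as in all 12 genes of the list, against 14.3% of all genes. Krt19, which bile duct cells share with mesothelium, was at 13, 10.6 and 8.41 CPM in wild type and 1.2, 1.08 and 1.49 CPM in null livers (log2FC -2.36, limma adjusted p = 0.00017). Krt7, another shared keratin, was at 5.91, 4.92 and 3.37 CPM in wild type and 0.545, 0.43 and 0.372 CPM in null livers (log2FC -1.96, limma adjusted p = 0.001). Bile duct markers, which include both keratins, summed to 31.4 to 36.1 CPM in wild type and 13 to 19.1 CPM in null livers. Of these, Epcam and Sox9 were not called, at 1.22 ± 0.557 CPM in wild type and 0.78 ± 0.511 CPM in null livers and 16.6 ± 5.76 CPM in wild type and 14.5 ± 3.97 CPM in null livers. How much liver capsule each specimen held is not given in the sources used here.

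Extracellular matrix genes were lower in part. Of 42 collagens and matrix genes, 12 were lower and none were higher by limma, edgeR or DESeq2 (0 at an unadjusted limma p under 0.05), with a median of -0.53 (10 to 12 with any single library left out). Col1a1, a chain of type I collagen, was at 12.5, 15.1 and 10.8 CPM in wild type and 3.92, 6.17 and 3.47 CPM in null livers (log2FC -1.34, limma adjusted p = 0.0047). Its partner Col1a2 was at 18, 24.6 and 25.7 CPM in wild type and 7.41, 6.96 and 8.8 CPM in null livers (log2FC -1.44, limma adjusted p = 0.00078). Col3a1 was at 28.7, 27.5 and 30.9 CPM in wild type and 10.8, 14.3 and 9.17 CPM in null livers (log2FC -1.29, limma adjusted p = 0.00092). Sparc, a collagen-binding glycoprotein, was at 95.2, 107 and 99.8 CPM in wild type and 55.9, 44.2 and 54 CPM in null livers (log2FC -0.96, limma adjusted p = 0.00062). In these 4 genes every wild type library exceeded every null library, but they were named because they were called. Of the 42 genes, 24 were lower and 2 higher without overlap, against 14.3% and 9.84% of all genes. Timp1, the inhibitor of matrix metalloproteinases, was at 3.82, 6.84 and 6.37 CPM in wild type and 0.109, 0.789 and 0.372 CPM in null livers (log2FC -2.23, standard error 0.28, limma adjusted p = 0.0009). Vim, vimentin, the intermediate filament of mesenchymal cells, was at 58.7, 46.7 and 31 CPM in wild type and 15.3, 12.1 and 17.7 CPM in null livers (log2FC -1.51, limma adjusted p = 0.0016). Of 28 matrix proteases and inhibitors, 7 were lower (1 without null library 2, 2 without wild type library 2, 3 without null library 1 or 3, 4 without wild type library 3, 2 with a pseudocount of 5 and 4 without a variance trend or with edgeR). Acta2, the actin of activated stellate cells, was at 1.46, 1.92 and 1.44 CPM in wild type and 0.763, 2.01 and 2.11 CPM in null livers with overlapping groups, and stellate cell markers overlapped as given above. Mesothelial markers fell beside these matrix genes, and their part in the matrix counts was not tested.

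None of 23 hepatocyte identity genes were called by limma, with a median of 0.25. At an unadjusted limma p under 0.05, 8 were higher and 3 lower, against 7.22% and 12.1% of all genes. The edgeR test called 1 higher and 0 lower, and DESeq2 likewise 1 and 0. Alb was at 58440.0, 53137 and 37027 CPM in wild type and 67216, 61047 and 71606 CPM in null livers (log2FC 0.45, limma adjusted p = 0.49), with wild type library 3, the library with the most Saa1 reads, the lowest. Because CPM are shares of a library, the acute-phase list, which took up 58083 to 135570.0 CPM in wild type and 36783 to 45326 CPM in null livers, left a different remainder to other genes. TMM scaling moved the median log2FC of all genes from -0.03 to 0.00 and raised the number of higher genes to 193.

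Major urinary proteins were among the genes that rose most. They are pheromone carriers of the hepatocyte under growth hormone control, and their genes form an array on chromosome 4. Of 24 Mup genes in the table, 11 were higher and 1 was lower (median 0.74; higher genes 8 to 14 with any single library left out and 7 without a variance trend or in a fit of all 12 libraries). Mup7 was at 595, 923 and 443 CPM in null and 108, 47 and 87.4 CPM in wild type livers (log2FC 3.02, standard error 0.28, limma adjusted p = 9.6e-05). Mup17 was at 621, 627 and 441 CPM in null and 185, 90.1 and 158 CPM in wild type livers (log2FC 2.00, limma adjusted p = 0.00034). Mup19 was at 6046, 6133 and 3464 CPM in null and 492, 194 and 1459 CPM in wild type livers (log2FC 3.28, limma adjusted p = 0.0033), with wild type library 3 well above the other wild type libraries. Mup14, to which most reads of the family were assigned, was at 18249 ± 2738 CPM in wild type and 24331 ± 2088 CPM in null livers and was not called (adjusted p = 0.35, limma). In contrast, Mup20, which encodes darcin, a male-biased pheromone, was lower at 221, 262 and 188 CPM in null and 350.1, 329 and 304 CPM in wild type livers (log2FC -0.56, limma adjusted p = 0.019). These genes are nearly identical in sequence, so the level of a single member is uncertain. The summed level of the family was 20141 to 27889 CPM in wild type and 36913 to 41085 CPM in null livers, without overlap. The test was no longer passed by Mup20 without wild type library 1 or 2 or null library 1 or 3 (limma adjusted p = 0.0507 to 0.0743). Mup20 lost the call without a variance trend, with edgeR, with DESeq2, in a fit of all 12 libraries, with TMM factors, with size factors or with a pseudocount of 5.

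Of 45 sex-biased targets of growth hormone, 13 were higher and 2 were lower, against 1.11% and 3.80% of all genes, with a median of 0.58 (higher genes 7 without null library 2 and 6 without a variance trend). The called genes were not of a single sex bias. Cyp2b9, which is female-biased, was at 361, 366 and 258 CPM in null and 149, 125 and 104 CPM in wild type livers (log2FC 1.38, limma adjusted p = 0.00038). Cyp2b13, also female-biased, was at 251, 187 and 212 CPM in null and 99.5, 71.7 and 43.4 CPM in wild type livers (log2FC 1.65, limma adjusted p = 0.0014). Slco1a1, an organic anion transporter that is male-biased, was at 41.1, 53.4 and 14.9 CPM in null and 10.6, 8.64 and 3.85 CPM in wild type livers (log2FC 2.02, limma adjusted p = 0.011). Mup3 was at 1696 ± 409 CPM in wild type and 3390.0 ± 1244 CPM in null livers (log2FC 0.96, limma adjusted p = 0.037). No call was made for Mup3 without wild type library 2 or 3 or null library 1 or 2 (limma adjusted p = 0.0913 to 0.164). Mup3 missed the thresholds without a variance trend.

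Drug-metabolising genes that were called were nearly all higher. Of 51 cytochromes P450 and targets of the xenobiotic receptors CAR and PXR, 14 were higher and 1 was lower (median 0.46; higher genes 9 without null library 2 and 6 without a variance trend). Nr1i3, which encodes CAR itself, was at 139.5, 117 and 124 CPM in null and 71.5, 74.7 and 65.4 CPM in wild type livers (log2FC 0.83, limma adjusted p = 0.0009). Cyp2a5, which hydroxylates coumarin and nicotine, was at 651, 443 and 429 CPM in null and 218, 190.1 and 114 CPM in wild type livers (log2FC 1.56, limma adjusted p = 0.0014). Cyp1a2, the caffeine demethylase, was at 797, 551 and 728 CPM in null and 339, 397 and 381 CPM in wild type livers (log2FC 0.88, limma adjusted p = 0.0029). Cyp2b10, the classic CAR target, was at 195, 191 and 149 CPM in null and 161, 128 and 98.8 CPM in wild type livers and was not called (log2FC 0.48, limma adjusted p = 0.12). Cyp2e1, which activates CCl4, was at 4145, 3169 and 3325 CPM in null and 2713, 2621 and 2125 CPM in wild type livers (log2FC 0.51, limma adjusted p = 0.078). Of 58 conjugating enzymes, 12 were higher and none were lower by limma, edgeR or DESeq2 (0 at an unadjusted limma p under 0.05) (median 0.42; 6 without null library 2, 7 without null library 1, 20 without wild type library 1 and 3 without a variance trend). The carboxylesterase Ces2a was at 372, 373 and 314 CPM in null and 205, 178 and 165 CPM in wild type livers (log2FC 0.95, limma adjusted p = 0.00056). Ces1e was at 97, 95.6 and 93.6 CPM in null and 47.4, 56.9 and 56.6 CPM in wild type livers (log2FC 0.82, limma adjusted p = 0.001). Of 32 genes of hepatocytes around the central vein, 8 were higher, against 1.11% of all genes. None were lower by limma, edgeR or DESeq2 (1 at an unadjusted limma p under 0.05). The number higher was 4 without wild type library 2 or null library 1, 5 without null library 2 or 3 and 4 without a variance trend. The zonal markers Glul and Axin2 were not called (0.35 and -0.15 on the log2 scale). Gene lists can share members, and the highest log2FC here, 2.00, was that of Mup17, given above with its family.

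**Figure D4:**
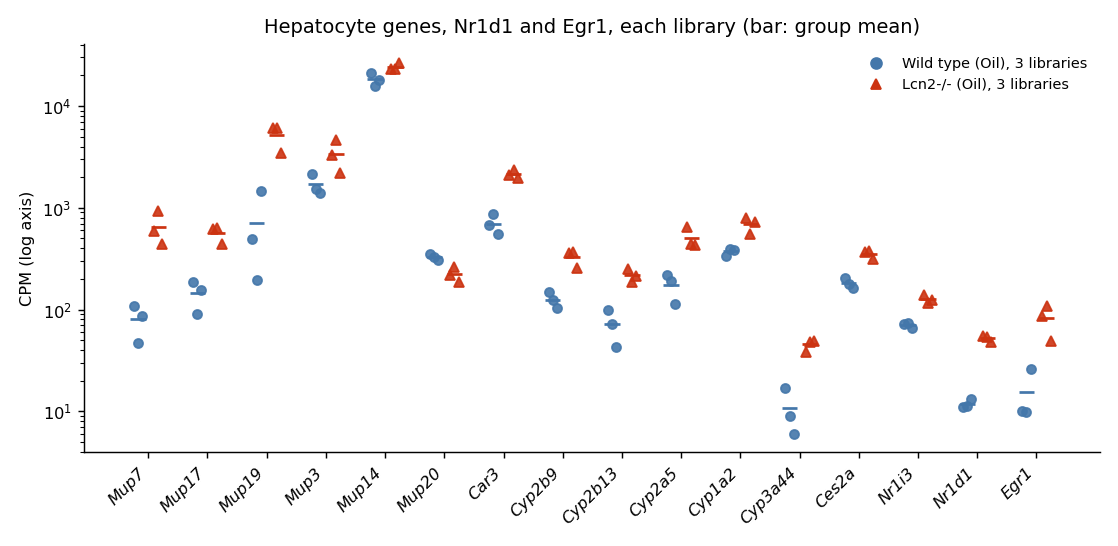
CPM on a log axis of major urinary proteins, Car3, drug-metabolising genes, Nr1d1 and Egr1 in each library (circles, wild type on oil; triangles, Lcn2 null on oil; bars, group means). Triangles lie above circles for every gene drawn but Mup20, and Mup14 was not called although its groups did not overlap.

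Among genes of metabolism and of secreted carriers, which were not tested as a group, Car3, a carbonic anhydrase that is abundant in liver and fat, was at 2091, 2378 and 1969.7 CPM in null and 683, 867 and 548 CPM in wild type livers (log2FC 1.64, standard error 0.16, limma adjusted p = 0.00013). Fat markers were absent from the table. Serpina6, which encodes the corticosteroid-binding globulin, was at 296, 334 and 294 CPM in null and 135, 170.3 and 166 CPM in wild type livers (log2FC 0.97, limma adjusted p = 0.00046). Of 67 genes of amino acid and urea metabolism, 5 were higher and 1 lower with a median of 0.27. The number of higher genes was 0 without null library 2 and 0 without a variance trend. Gpt, alanine aminotransferase, was at 249, 260.0 and 230.5 CPM in null and 165, 160.4 and 166 CPM in wild type livers (log2FC 0.59, limma adjusted p = 0.0035). Asns, asparagine synthetase, a gene of the amino acid response, was at 0, 0.287 and 0.248 CPM in null and 1.64, 3.6 and 4.45 CPM in wild type livers (log2FC -1.79, limma adjusted p = 0.0047) and so near the detection limit in the null livers. Angptl8, induced by feeding, was at 69.9, 31.6 and 47.7 CPM in null and 17.2, 22.9 and 21.2 CPM in wild type livers (log2FC 1.18, limma adjusted p = 0.0092). Pck1, the gluconeogenic enzyme induced by fasting, was at 719, 521 and 657 CPM in null and 771, 1261 and 1029 CPM in wild type livers (log2FC -0.67, limma adjusted p = 0.038). Feeding before death is not given in the sources used here, and its part was not tested. The thresholds were missed by Gpt without null library 2 (limma adjusted p = 0.0282, with a log2FC under the threshold where p passed) and Pck1 without wild type library 2 or 3 or null library 1, 2 or 3 (limma adjusted p = 0.0572 to 0.188). Gpt would not be called without a variance trend. Angptl8 lost the call without a variance trend or in a fit of all 12 libraries. Pck1 missed the thresholds without a variance trend, with edgeR, in a fit of all 12 libraries, with TMM factors, with size factors or with a replicate block.

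Some clock genes were higher. Of 22 tested, 6 were higher and 1 was lower, against 1.11% and 3.80% of all genes (higher genes 3 without wild type library 2 or 3 or null library 3 and 3 without a variance trend), with a median of -0.04. Nr1d1, which encodes the repressor REV-ERB alpha, was at 55.3, 54.1 and 48.1 CPM in null and 11, 11.4 and 13.1 CPM in wild type livers (log2FC 2.06, standard error 0.13, limma adjusted p = 3.3e-06). Nr1d2, its relative, was at 40.1, 30.7 and 32.4 CPM in null and 16.1, 13 and 18.9 CPM in wild type livers (log2FC 1.07, limma adjusted p = 0.0028). Tef, an activator of clock output, was at 28, 15.3 and 19.8 CPM in null and 9.19, 7.08 and 8.54 CPM in wild type livers (log2FC 1.22, limma adjusted p = 0.0051). Dbp, another output activator, was at 22.2, 1.72 and 6.45 CPM in null and 0.455, 0.48 and 0.361 CPM in wild type livers (log2FC 2.44, limma adjusted p = 0.023), with a wide range among null libraries. The other higher clock genes were Per3 and Cry2, and the lower one was Tspan4, a tetraspanin and not a core clock component. Arntl, the BMAL1 gene repressed by REV-ERB alpha, was at 10.1, 14.7 and 15 CPM in null and 19.8, 19.1 and 15.1 CPM in wild type livers and was not called (log2FC -0.42, limma adjusted p = 0.22), and neither was Per1 (-0.73 on the log2 scale). The hour of death is not given in the sources used here, and its part was not tested. The call was lost for Per3 without wild type library 1, 2 or 3 or null library 1 or 3 (limma adjusted p = 0.0583 to 0.0966) and Cry2 without wild type library 2 or 3 or null library 1, 2 or 3 (limma adjusted p = 0.0603 to 0.123). Nr1d2 would not be called in a fit of all 12 libraries. Per3 and Cry2 lost the call without a variance trend.

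Immediate early genes moved in both directions. Egr1, a zinc finger factor induced by serum and injury, was at 87.2, 109 and 49.2 CPM in null and 10.2, 9.96 and 26 CPM in wild type livers (log2FC 2.40, standard error 0.33, limma adjusted p = 0.0014). Ier2 was at 33.9, 33.1 and 21.3 CPM in null and 10.6, 13.1 and 16.7 CPM in wild type livers (log2FC 1.07, limma adjusted p = 0.0086). Jun, a subunit of AP-1, was instead at 3.27, 2.51 and 3.1 CPM in null and 9.28, 14 and 10.8 CPM in wild type livers (log2FC -1.63, limma adjusted p = 0.0012). Fos was not called at 4.69, 7.68 and 1.12 CPM in null and 2, 2.16 and 2.04 CPM in wild type livers (adjusted p = 0.45, limma). Of 26 such genes, 2 were higher and 5 lower (lower genes 2 without null library 2 and 3 without null library 3; higher genes 1 without null library 2 and 1 without a variance trend). Meg3, a maternally expressed long RNA, was at 5.99, 19.4 and 7.56 CPM in null and 0.91, 0.6 and 0.481 CPM in wild type livers (log2FC 2.69, limma adjusted p = 0.0011). The call did not hold for Ier2 without null library 2 (limma adjusted p = 0.059). Ier2 missed the thresholds without a variance trend.

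A comparison with the 6 libraries from CCl4-injected mice tested which of these differences depended on the injection. The interaction, the genotype difference on oil minus that on CCl4, was tested with limma over all 12 libraries for 15210 genes, and 287 genes (1.89%) passed. The difference on oil was above that on CCl4 for 123 (0.809%) and below it for 164 (1.08%). The total was 156 without wild type library 2, 167 without Lcn2 null library 1, 154 without Lcn2 null library 2, 136 without wild type CCl4 library 2, 173 and 151 without Lcn2 null CCl4 libraries 1 and 2, and 448 without Lcn2 null CCl4 library 3. On CCl4 alone, 13 genes (0.0855%) were higher and 18 (0.118%) lower in Lcn2 null mice. Of the 536 lower genes with values in all libraries, 64.2% had a negative log2 fold change on CCl4, with a median of -0.10, against 42.7% of all 15210 genes and a median of 0.04. For the 158 higher genes, 48.1% were negative on CCl4 and the median was 0.01.

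**Figure D5:**
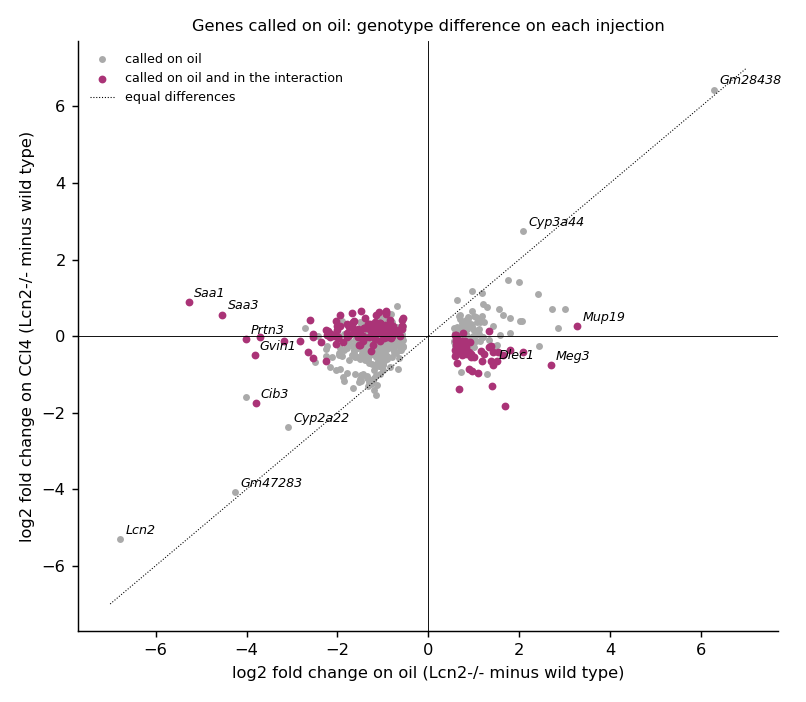
log2 fold change of Lcn2 null against wild type mice on CCl4 (y axis) and on oil (x axis) for each gene called on oil, with genes also called in the interaction in purple; the dotted line marks equal differences. Of the genes lower on oil 64.2% lie below 0 on the y axis, and Lcn2, Gm28438, Gm47283 and Cyp3a44 were called on both injections.

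Of 30 acute-phase genes, 9 passed the interaction, each with a lower value on oil relative to CCl4. Orm3 (difference -1.10, limma adjusted p = 0.12), Saa4 (difference -0.51, limma adjusted p = 0.37) and Lcn2 itself (difference -1.47, limma adjusted p = 0.2) did not pass. Saa2 had values on CCl4 only in wild type mice and was not tested. Saa1 on CCl4 was at 561, 728 and 224 CPM in wild type and 318, 499.5 and 3607 CPM in null livers, and its genotype difference was 0.88 there against -5.27 on oil (difference -6.15, limma adjusted p = 0.011). Saa3 differed likewise (difference -5.09, limma adjusted p = 3.3e-06), as did Orm2 (difference -3.67, limma adjusted p = 0.0015) and Hp (difference -1.40, limma adjusted p = 0.0074). Steap4, at 120.0, 118 and 120.4 CPM in wild type and 144, 128 and 96.6 CPM in null livers on CCl4, had a difference of 0.02 there (difference -1.76, limma adjusted p = 0.00067). None of the 5 genes was called on CCl4. For mesothelial genes the median on CCl4 was -0.18 and 3 of 12 passed the interaction, and for interferon-stimulated genes the median was 0.11 and 5 passed.

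Genes called in opposite directions under the injections were Dlec1, Serpina6 and Upp2. Dlec1 was at 904, 926 and 821 CPM in null and 372, 329 and 289.9 CPM in wild type livers on oil but at 275, 255 and 303 CPM in Lcn2 null and 401, 492 and 512 CPM in wild type mice on CCl4 (difference 2.17, limma adjusted p = 2.8e-06). Serpina6 reversed in the same way, with 68.7, 71.7 and 68 CPM in Lcn2 null and 103, 132 and 166 CPM in wild type mice on CCl4 (difference 1.88, limma adjusted p = 9.2e-05). Upp2, uridine phosphorylase of the liver, was higher on oil (0.68) and lower on CCl4 (-1.37). The test was no longer passed by Upp2 without wild type library 3 or null library 1 (limma adjusted p = 0.023 to 0.0527, with a log2FC under the threshold where p passed). Upp2 would not be called without a variance trend.

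Other genes differed in the same direction under both injections. Gm28438, annotated as a pseudogene on chromosome 1, was at 109, 90.8 and 71.9 CPM in null and 0.364, 0.12 and 0 CPM in wild type livers on oil and at 104, 129.6 and 124 against 0.442, 0.0685 and 0.681 CPM on CCl4. Gm47283, annotated on the Y chromosome although the mice were female, was at 0.545, 0.574 and 1.61 CPM in null and 34.9, 26.3 and 43 CPM in wild type livers on oil and at 1.05, 3.62 and 2.5 against 76.8, 37.6 and 52.4 CPM on CCl4. In both genes no library of the lower genotype exceeded 3.62 CPM. Whether the reads of either gene came from its annotated place or from similar sequence elsewhere was not tested. Cyp2a22 was at 0.218, 0.287 and 0.248 CPM in null and 18.2, 10.6 and 4.33 CPM in wild type livers on oil, with a difference of -2.39 on CCl4, and Cyp3a44 at 38.6, 48.1 and 49.7 CPM in null and 17.1, 9.12 and 6.01 CPM in wild type livers, with a difference of 2.74 on CCl4. Cib3, a calcium-binding protein gene on chromosome 8, was at 0.545, 0.789 and 0.62 CPM in null and 17.6, 20.6 and 29.2 CPM in wild type livers on oil and lower on CCl4 as well (-1.75), with a deeper difference on oil (difference -2.05, limma adjusted p = 0.0049). Tmem254a, at 63.9, 60 and 66.6 CPM in null and 157, 164 and 149.5 CPM in wild type livers, had a difference of -1.29 on oil and -1.16 on CCl4. The 9 genes called in the same direction under both injections were Lcn2, these 6 genes and a pair of unnamed neighbours of Tmem254a whose reads it can share. Cyp3a44 and Cyp2a22 have close paralogs as well. The labels do not give a substrain. Nnt, which is truncated in the C57BL/6J substrain, was at 91.4, 91.3 and 91.6 CPM in null and 80.4, 82.7 and 66.1 CPM in wild type livers on oil and was not called (log2FC 0.26, limma adjusted p = 0.2), although 3′ reads do not test that truncation.

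Genes near the deleted locus were examined because a targeted allele can carry linked sequence. Within 10 Mb of Lcn2 on chromosome 2, 231 other genes were tested, and 5 were higher and 6 lower, 4.76% against 4.91% of all genes. The higher ones were Gm13339, Trub2, Coq4, Kyat1 and Miga2, and the lower ones Il1rn, Uap1l1, Slc2a6, Adamtsl2, Lamc3 and Ptgs1. Kyat1, a kynurenine aminotransferase, was at 112, 151 and 139 CPM in null and 82, 82.1 and 67.6 CPM in wild type livers (log2FC 0.78, limma adjusted p = 0.004) on oil and at 105, 106 and 131 against 96.1, 98.7 and 87.2 CPM on CCl4. Trub2 and Coq4, which are immediate neighbours, rose by 0.70 and 0.88 on the log2 scale. The share of called genes around the locus was near that over all genes. No call was made for Gm13339 without null library 2 (limma adjusted p = 0.057), Trub2 without wild type library 2 or 3 or null library 1, 2 or 3 (limma adjusted p = 0.0651 to 0.14) and Coq4 without wild type library 1 or null library 2 or 3 (limma adjusted p = 0.0505 to 0.0714). The thresholds were missed by Miga2 without wild type library 2 or null library 1 (limma adjusted p = 0.0572 to 0.0605), Il1rn without wild type library 1, 2 or 3 or null library 1, 2 or 3 (limma adjusted p = 0.0652 to 0.156) and Uap1l1 without wild type library 2 or 3 or null library 1, 2 or 3 (limma adjusted p = 0.0812 to 0.12). The call was lost for Slc2a6 without wild type library 1 or 2 or null library 1, 2 or 3 (limma adjusted p = 0.0715 to 0.137), Adamtsl2 without wild type library 1 or 3 or null library 2 or 3 (limma adjusted p = 0.0577 to 0.12) and Lamc3 without wild type library 2 or null library 2 (limma adjusted p = 0.0515 to 0.0632). The call did not hold for Ptgs1 without wild type library 1 or 2 or null library 1, 2 or 3 (limma adjusted p = 0.0847 to 0.141). Gm13339 lost the call without a variance trend or in a fit of all 12 libraries. Trub2 missed the thresholds without a variance trend or with a pseudocount of 5. Coq4, Kyat1 and Miga2 would not be called without a variance trend. Il1rn lost the call without a variance trend, with edgeR, with TMM factors, with size factors, with a pseudocount of 5 or with a replicate block. Uap1l1 missed the thresholds with a pseudocount of 5 or with a replicate block. Slc2a6 would not be called without a variance trend, with a pseudocount of 5 or with a replicate block. Adamtsl2 lost the call with a pseudocount of 5. Lamc3 missed the thresholds with edgeR or with a pseudocount of 5. Ptgs1 would not be called without a variance trend, in a fit of all 12 libraries, with a pseudocount of 5 or with a replicate block.

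Ribosome, respiratory chain and proteasome genes gave no call. None of 80 cytosolic ribosomal protein genes, 97 respiratory chain genes and 39 proteasome genes were called by limma, with medians of -0.17, 0.13 and -0.01. At an unadjusted limma p under 0.05, 21 ribosomal genes were lower and 17 respiratory chain genes higher, against 12.1% and 7.22% of all genes. Groups did not overlap in 26 ribosomal genes, all lower, and in 29 respiratory chain genes, all higher, against 14.3% and 9.84% of all genes. Of the 80 ribosomal genes, 76 had a negative log2FC, so small shifts went mostly one way without a call. For both lists edgeR and DESeq2 called 0 genes. The endothelial list of 28 genes had a median of -0.14, and the 10 erythroid genes -0.20.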

How the data were processed

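RNA of perfused mouse livers was sequenced from 3′ ends (MACE) by the labels and the study's methods, which also name a TruSeq stranded total RNA kit. The submitters' notes list Trim Galore, STAR and featureCounts, with mm10 as the build, whereas the methods name Salmon as the counter. Which kit and counter gave the deposited values, and whether strand was used in counting, is not settled by these sources, so overlapping and antisense genes are uncertain. The authors deposited CPM, read counts of genes scaled to the library total, with fold changes and p-values of their own comparisons (DESeq2 1.30.0), which were not used. All CPM were whole multiples of 1 read within 0.001, and reads recovered from them entered only the count tests. On log2(CPM + 1), limma 3.58.1 in R 4.3.3 fitted the 6 oil libraries over 14202 genes, with a variance trend and Benjamini-Hochberg adjustment. The interaction used 12 libraries and 15210 genes. The limma, edgeR and DESeq2 fits were checked on simulated data, in which only well-covered genes changed and all genes had the same dispersion. Recovery of weakly expressed genes, or of genes with a wide range within a group, was thus not checked. Alternatives were other pseudocounts, a filter, scalings, edgeR 4.0.16, DESeq2 1.42.0, a replicate block and each library left out. Members and lists were chosen with earlier results of these data known. The genes named are the 15 called genes with the largest change in each direction among those averaging 5 CPM or more, up to 5 called members of each list per direction by the limma statistic (the 2 most abundant where fewer than 2 were called), and Lcn2, Mpo, Elane, Cd14, Tlr4, Ccl2, Il1b, Tnf, Hamp, Saa1, Alb, Arntl, Nnt and Acta2. Other genes, the families of neighbours and the motif TTGCNNAA were chosen after their values were seen. Genes were placed by GENCODE M21 and promoters were taken from RefSeq on GRCm38.p6, matched by symbol. Mup, Saa, Cyp3a, Trim and Tmem254a genes have near-identical copies that can share reads.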

Additional observations from a re-analysis of the deposited data

Results flagged for a closer look

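Of the genes named above, 54 had a genotype difference on oil that differed from that on CCl4 by the limma interaction over 12 libraries. Among all 15210 genes tested the share was 1.89%. Each value is the log2 fold change on oil minus that on CCl4, so a negative value means that the gene was lower in Lcn2 null mice on oil relative to CCl4. The difference was below 0 for 38 genes, which were Saa1 (-6.15), Saa3 (-5.09), Prtn3 (-3.94), Orm2 (-3.67), Gvin1 (-3.32), Marco (-3.06), Isyna1 (-2.69) and S100a8 (-2.53), Upk1b (-2.39), Cxcl1 (-2.28), Slpi (-2.23), Krt19 (-2.19), Oas1a (-2.18), Cd14 (-2.14), Apol11b (-2.14), Asns (-2.12), Cib3 (-2.05), Mt2 (-1.98), Il18r1 (-1.82), Steap4 (-1.76), Jun (-1.73) and Igha (-1.61), and with smaller differences Vim (-1.58), Apcs (-1.55), Orm1 (-1.50), Irf7 (-1.43), Hp (-1.40), Cd55 (-1.36), Myo1f (-1.32), Itgb2 (-1.30), Hpx (-1.27), Vcam1 (-1.19), C8a (-1.16), Tmsb4x (-1.10), Cp (-1.03), Tspan4 (-0.87), Ly6e (-0.86) and Slc39a8 (-0.81). The difference was above 0 for 16 genes, which were Cyp2e1 (0.97), Gpt (1.11), Ces1e (1.12), Ces2a (1.48), Cyp2b9 (1.63), Tef (1.68), Cyp2b10 (1.71), Serpina6 (1.88), Per3 (2.05), Upp2 (2.05), Car3 (2.13), Dlec1 (2.17), Gm13775 (2.49), Hamp2 (2.72), Mup19 (3.01) and Meg3 (3.46). Acute-phase, granule and macrophage genes lie on one side and cytochromes P450, carboxylesterases and Mup19 on the other. Many of these genes were named because they were called on oil, and the same oil libraries enter the interaction. The sides and the number of genes therefore partly repeat that choice and are no separate result. Saa2 had no values in Lcn2 null mice on CCl4 and was not tested.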

How the results depend on the processing

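The number of higher genes was 158 and of lower genes 539. Without a variance trend these were 53 and 320, at a log2 fold change over 1 they were 62 and 327, and with DESeq2 on recovered reads 264 and 682. Leaving out each library in turn gave 84 to 204 higher and 253 to 497 lower genes, and 322 to 523 of the 697 calls were kept. Of 1444 genes in any list, 304 were called, 162 without a variance trend and 177 to 282 with a library left out. The 287 genes of the interaction became 136 to 448 with a library left out. The low values were 156 without wild type oil library 2, 167 and 154 without null oil libraries 1 and 2, 136 without wild type CCl4 library 2, and 173 and 151 without Lcn2 null CCl4 libraries 1 and 2, while 448 was reached without Lcn2 null CCl4 library 3. The cause of these moves was not tested, except that fewer libraries entered each fit. A mean of at least 1 CPM (157 and 508), pseudocounts of 0.5 (161 and 530) and 5 (130 and 375), TMM factors (193 and 497), size factors (193 and 498), edgeR (191 and 482) and a fit of all 12 libraries (165 and 567) stayed within 1.5-fold. The share of higher genes among calls was 22.7%, and 28.0% with TMM factors. Deviations of libraries of the same number correlated at 0.069, -0.065 and -0.022, so no pairing by number was seen across genes. These correlations cannot show a pairing that affects few genes. With the number as a replicate block, 165 genes were higher and 483 lower, 298 list genes and 252 interaction genes were called, and 601 of the calls were kept. No named gene that was called changed sign under any alternative, whereas 13 that were not called did. Their log2 fold changes of the opposite sign were with TMM factors Elovl5 (0.0086) and Apoa1 (0.016), with size factors Elovl5 (0.0085) and Apoa1 (0.016), with edgeR Elovl5 (0.011), Apoa1 (0.027) and Acta2 (0.073), with DESeq2 Elovl5 (0.011), Apoa1 (0.027) and Acta2 (0.073), and with a library left out they ran over -0.398 to 0.0084 for Il6ra, -0.416 to 0.0544 for Scd1, -0.415 to 0.0673 for Sox9, -0.143 to 0.368 for Slc22a17, -0.618 to 0.0983 for Hba-a2, -0.11 to 0.24 for Thy1, -0.0273 to 0.197 for Dpp4, -0.161 to 0.281 for Trim12c, -0.129 to 0.268 for Ms4a4b, -0.0593 to 0.152 for Aqp1, -0.14 to 0.0793 for Elovl5, -0.171 to 0.0698 for Apoa1 and -0.173 to 0.236 for Acta2. Depth limits genes under 0.372 CPM.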
